A study of Mus musculus with 23 samples.

Results

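The immediate early genes described here are Fos, Fosb, Jun, Junb, Jund, Egr1, Ier2, Ier3, Nr4a1 and Dusp1. These 10 genes were named by symbol, and all 10 were found among the 32285 genes of the deposited matrix. Their UMIs (unique molecular identifiers, each counting 1 captured RNA molecule) were followed across cell types, treatments and fluorescence bins of the mouse brain. In an antibody transport vehicle (ATV), binding to a protein on brain capillaries lets an antibody be carried through the vessel wall. ATV-TfR, which binds the transferrin receptor, was given to TfR mu/hu KI mice. ATV-CD98hc, a binder of the CD98 heavy chain, was given to CD98hc mu/hu KI mice, and control IgG to C57BL/6 mice, so that treatment and genotype cannot be told apart. All 3 antibodies bore the AF647 dye and were given into a tail vein at 45 mg/kg to mice of 12 weeks (3.3 months by another label), and the brains were taken 24 hours later. Live cells were sorted into negative, low, medium and high bins of dye signal with gates set on the ATV-TfR mice, 2 pools per treatment, each of 1 male and 1 female mouse. One control library, replicate 1 of the negative bin, was not analysed here, so 23 libraries fell into 12 groups. A group thus holds 2 pools at most, and p-values measure only the spread between such pools. The control IgG negative group, and some groups in rare classes, hold 1 library, which the test assumes to vary like the libraries of the other groups. All brains were dissociated with enzymes at 37 °C in the presence of Actinomycin D, which blocks transcription, and Anisomycin, which blocks translation.

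Immediate early genes are transcribed within minutes of a stimulus, without the need for new protein, when kinase cascades act on factors such as SRF and CREB that already sit at their promoters. Fos and Fosb pair with Jun, Junb or Jund to form AP-1, a transcription factor. Egr1 is a zinc finger transcription factor, and Nr4a1 an orphan nuclear receptor. Ier2 and Ier3 are small early response proteins. Dusp1 is a phosphatase that switches off MAP kinases. In brain tissue the family is widely used as a mark of recent neuronal activity, and it is also known to rise during enzymatic dissociation of tissue at warm temperature.

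In GRCm38 (GENCODE M21) the genes lie on chromosomes 4, 7, 8, 12, 15, 17 and 18, and all 10 are protein coding. Jund, Ier2 and Junb share chromosome 8, where 311631 bases separate Ier2 from Junb, and Dusp1 and Ier3 share chromosome 17. RefSeq start sites of 8 of the 10 members, without Egr1 and Ier2, were matched in the promoter table used here. The stretch of 120 bases just before the start site is shown for Fos, Fosb and Nr4a1, which shared single endothelial-like cells more often than independence would give, and for Ier3, whose overlap with them was near that of independence. The capitals mark TGACG or its reverse complement CGTCA, the core of the cyclic AMP response element to which CREB and its relatives bind. The coordinates are those of GRCm38.p6, and each run reads from 5′ to 3′ on the strand of the gene.
Fos, chr12:85473770-85473889, plus strand: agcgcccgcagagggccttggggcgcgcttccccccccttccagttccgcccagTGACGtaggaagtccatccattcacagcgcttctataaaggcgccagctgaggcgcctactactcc
Fosb, chr7:19310046-19310165, minus strand: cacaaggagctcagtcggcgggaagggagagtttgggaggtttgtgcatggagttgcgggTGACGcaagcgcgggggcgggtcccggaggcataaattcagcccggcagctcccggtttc
Nr4a1, chr15:101266726-101266845, plus strand: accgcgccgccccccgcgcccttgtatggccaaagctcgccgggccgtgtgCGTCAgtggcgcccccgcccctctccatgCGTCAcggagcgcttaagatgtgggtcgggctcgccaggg
Ier3, chr17:35821593-35821712, plus strand: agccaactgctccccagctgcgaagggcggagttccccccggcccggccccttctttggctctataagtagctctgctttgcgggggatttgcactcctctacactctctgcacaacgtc

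Across the full 250 bases before the start, TGACG on either strand was present in 5 of the 8 matched promoters (Fos, Fosb, Junb, Nr4a1 and Dusp1), against 17.77% of 32851 promoters of the table. The full element TGACGTCA was present in 1 (Dusp1) against 1.546%. GGGCGG, on either strand, was present in 6 against 32.74%, and TATAA in 2 (Fos and Ier3) against 22.78%. The CArG box, the SRF motif, was searched as CC, then 6 letters of A or T, then GG. It was in none of the 8 windows against 1.467%, and TGANTCA, the AP-1 motif, in none against 6.749%. Sites farther upstream, and the promoters of Egr1 and Ier2, were not searched. The window of Jund ends at base 70697738, whereas its GENCODE gene starts at 70698949. Those of Nr4a1 and Dusp1 lie within the GENCODE genes, so RefSeq and GENCODE starts differ for these genes. TGACGTCA holds TGACG, so those 2 counts overlap. These are matches of letters only.

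After filters on cells and doublets, 234024 cells were kept. They fell into 12 classes, named by marker lists and written with the ending -like, and 7043 cells lay in 9 clusters left unnamed. The largest classes were endothelial-like (97654 cells), astrocyte-like (92035) and microglia-like (11887). Library totals ran from 1861238 to 90307818 UMIs, and the 4 smallest were those of the control IgG medium and high bins. A barcode sequence recurred in more than 1 library for 6675 of 227239 sequences, at most 106 in any pair of libraries. Levels are given as CPM, the UMIs of a gene per 1000000 UMIs of the class in a library, for classes with at least 20 cells there.

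Of the 12 classes, the neutrophil-like cells held the family at its highest level, with 8681 ± 5270 CPM for the 10 members summed (SD, n = 8 libraries). Monocyte or dendritic cell-like cells followed with 2733 ± 844 (SD, n = 9) and endothelial-like cells with 1762 ± 308 (SD, n = 21). Border macrophage-like cells held 1341 ± 488 (SD, n = 21) and microglia-like cells 1192 ± 532 (SD, n = 17). The lowest sums were those of choroid plexus epithelial-like cells, with 355 ± 53.9 (SD, n = 23), and astrocyte-like cells, with 176 ± 33.4 (SD, n = 17). Immune and endothelial-like cells thus stood at the top of the order and astrocyte-like cells at its foot. These sums differ in makeup, since Jund gave 81.1% of the choroid plexus epithelial-like and 10.8% of the neutrophil-like sum, and a class that is rare in a library rests on few UMIs. The libraries behind each class differ too. In ATV-TfR medium replicate 2 the order turned, with 1089 CPM in neutrophil-like and 3194 in monocyte or dendritic cell-like cells. Astrocyte markers summed to 15131 CPM in the neutrophil-like cells of that library. The levels of single genes follow.

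Fos, the AP-1 subunit most used as a mark of activity, had a lowest, median and highest level of 127, 2359 and 4450 CPM in the 8 neutrophil-like libraries. In the 9 monocyte or dendritic cell-like libraries the same 3 values were 161, 418 and 706, and in the 21 border macrophage-like libraries 13.4, 110 and 389. Endothelial-like cells had 4.76, 20.7 and 81.5 over 21 libraries. The ranges of neighbouring classes in the order of Fos levels overlapped throughout. Within a library the order was steadier, since Fos was higher in border macrophage-like than in endothelial-like cells in 19 of 19 libraries and higher in endothelial-like than in astrocyte-like cells in 17 of 17. Astrocyte-like cells held 5.22 ± 2.04 CPM (SD, n = 17) and choroid plexus epithelial-like cells 1.57 ± 2.52 (SD, n = 23), with 7 of the latter 23 libraries at 0. Fosb, its close relative, was at 213 ± 179 CPM in neutrophil-like cells (SD, n = 8) and at 0 in 9 of 17 astrocyte-like and 17 of 23 choroid plexus epithelial-like libraries.

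The Jun subunits had other orders. Jun was at 496 ± 305 CPM in neutrophil-like (SD, n = 8), 459 ± 105 in endothelial-like (SD, n = 21) and 340 ± 138 in microglia-like cells (SD, n = 17), with overlapping ranges. In pericyte-like cells, the mural neighbours of the endothelium, Jun was at 61.3 ± 29.8 CPM (SD, n = 17) and below the endothelial-like level in 17 of 17 libraries. Jund, the Jun family member that many resting cells hold, was at 689 ± 117 CPM in oligodendrocyte-like (SD, n = 13) and 605 ± 167 in ependymal-like cells (SD, n = 15), classes in which Fos was at 2.49 ± 2.86 and 23.2 ± 34.3. Its lowest level was that of astrocyte-like cells, at 65.1 to 134 CPM over 17 libraries, apart from the microglia-like range of 200 to 382 next above it. Junb was at 325 ± 180 CPM in microglia-like cells (SD, n = 17) and below that in the endothelial-like cells of 16 of 17 shared libraries.

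Among the other members, Ier3 was the only 1 of the 10 whose highest class mean was endothelial-like, at 97.4, 206 and 376 CPM for the lowest, median and highest of 21 libraries. Ier3 was higher in endothelial-like than in microglia-like cells in 17 of 17 libraries, than in border macrophage-like cells in 19 of 19 and than in pericyte-like cells in 16 of 17, while the neutrophil-like level lay below it in 6 of 8. Nr4a1 was at 368 ± 238 CPM in neutrophil-like (SD, n = 8) and 285 ± 132 in monocyte or dendritic cell-like cells (SD, n = 9). The range of the latter, 95.2 to 495, lay apart from the 14.1 to 49.9 of smooth muscle-like cells, the next in order. Endothelial-like Nr4a1 spanned 0 to 118 CPM over 21 libraries with a median of 21.5. Egr1 was at 55.8 ± 37.7 CPM in monocyte or dendritic cell-like (SD, n = 9), 12.1 ± 11.0 in endothelial-like (SD, n = 21) and 0.838 ± 0.628 in astrocyte-like cells (SD, n = 17). The phosphatase gene Dusp1 was at 174 ± 48.2 CPM in endothelial-like and 108 ± 15.3 in smooth muscle-like cells, with the endothelial-like level higher in 8 of 8 shared libraries. Ier2 was at 232 ± 52.5 CPM in endothelial-like and 87.9 ± 21.4 in pericyte-like cells, again with the endothelial-like level higher in 17 of 17.

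**Figure D1:**
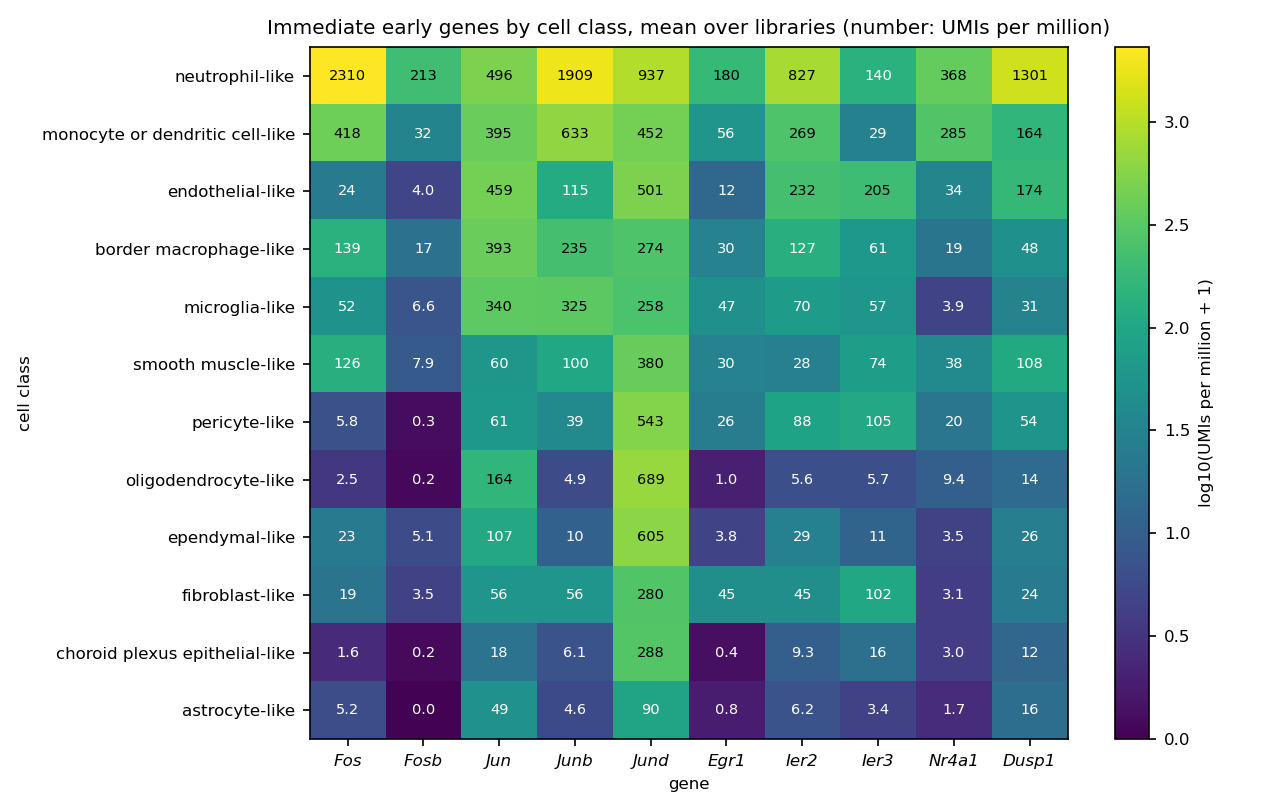
Mean CPM of the 10 genes (columns) in the 12 classes (lines), averaged over the libraries with at least 20 cells of the class, with a colour scale in log10 of the level plus 1. Neutrophil-like cells hold the highest mean of every gene but Ier3, whose highest mean is endothelial-like.

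To see which genes ran alongside the family, log2 levels of 11152 genes were correlated over 152 sums of class and library after the mean of each class was removed. The genes most like the summed members were Btg2 (Pearson r = 0.52), an antiproliferative gene that is itself an early response gene, then Ptma and Emd (both 0.48). Those most like Jun were Klf6 (0.62), which encodes a zinc finger transcription factor, followed by Arhgap31 and Adam15 (both 0.50). For Fos the highest values were those of Rcn3 and Ccnd2 (both 0.40). Among the members themselves the highest value was that of Ier2 with Dusp1 (0.62), followed by Fos with Egr1 (0.57), and Ier3 with Nr4a1 stood at -0.10. The sums share libraries and differ in depth, so these values only describe them.

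In endothelial-like cells Fos, Egr1 and Nr4a1 were lower in the high than in the negative bin of both antibody transport vehicles, while Ier3 was higher in the high bin of ATV-TfR. The Fos level in ATV-TfR libraries, replicate 1 then 2, was 38.3 and 20.9 CPM in the negative bin, 81.5 and 33.8 in the low, 17.9 and 20.7 in the medium, and 6.13 and 5.68 in the high bin. For Nr4a1 the same libraries held 88.1 and 118 CPM in the negative, 84.8 and 96.7 in the low, 21.5 and 24.0 in the medium, and 14.8 and 10.2 in the high bin. Egr1 stood at 21.1 and 24.4 CPM in the negative bin and 4.60 and 2.78 in the high bin. For all 3 genes both high libraries lay below both negative libraries. Ier3 ran the other way, with 142 and 97.4 CPM in the negative, 134 and 164 in the low, 237 and 251 in the medium, and 238 and 273 in the high bin, again with no overlap between high and negative. Jun, at 611 and 480 CPM in the negative and 544 and 466 in the high bin, overlapped.

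In the ATV-CD98hc libraries Fos, Egr1 and Nr4a1 were also lowest in the high bin. Fos stood at 53.4 and 22.6 CPM in the negative, 27.2 and 34.1 in the low, 9.30 and 10.2 in the medium, and 4.76 and 6.72 in the high bin. Nr4a1 stood at 64.1 and 45.2 CPM in the negative, 27.2 and 25.0 in the low, 13.5 and 11.8 in the medium, and 8.70 and 8.17 in the high bin. Egr1 was at 39.2 and 16.9 CPM in the negative and 3.31 and 3.52 in the high bin. The high libraries again lay below the negative ones for each of the 3 genes. Ier3 was at 132 and 198 CPM in the negative and 161 and 215 in the high bin, which overlapped. The negative bins held few endothelial-like cells, 123 and 79 for ATV-TfR and 80 and 60 for ATV-CD98hc, so that Fos there rests on 20, 6, 15 and 4 UMIs in those 4 libraries.

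**Figure D2:**
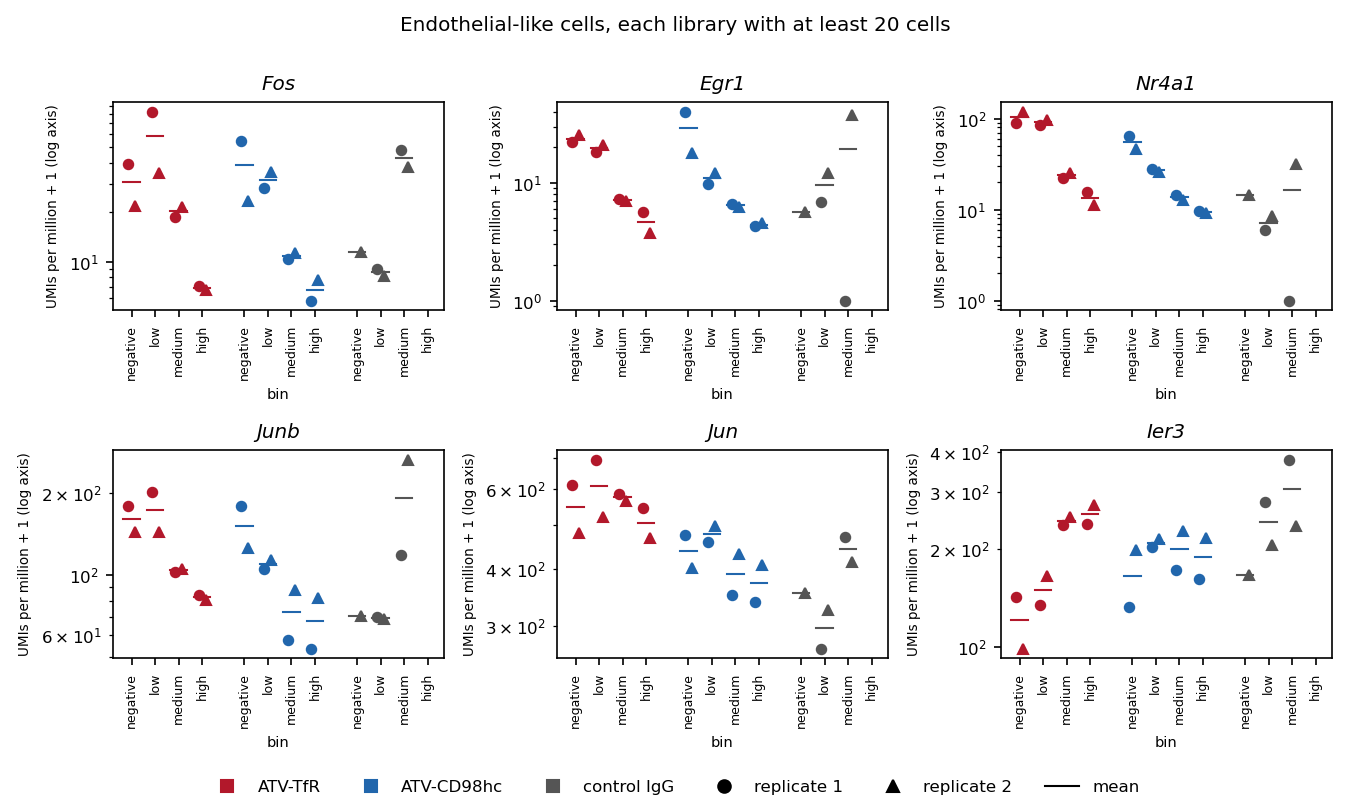
CPM plus 1 (log axis) of 6 genes in endothelial-like cells of each library, by bin and treatment, with a circle for replicate 1, a triangle for replicate 2 and a bar at the mean. The negative and low libraries of both antibody transport vehicles sit above their high libraries for Fos, Egr1 and Nr4a1, and Ier3 sits higher in the medium and high bins of ATV-TfR than in its negative and low bins.

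In edgeR's quasi-likelihood test of high against negative, 4 of 10 members were called for ATV-TfR, 3 lower and 1 higher, where 10.3% of the 15431 genes tested were called in either direction. Called means an adjusted p (Benjamini-Hochberg, over all genes tested in the class) below 0.05. Nr4a1 fell by 2.75 on the log2 scale (SE 0.27, adjusted p = 7.1e-08), Egr1 fell by 2.34 (SE 0.52, adjusted p = 0.0033) and Fos fell by 2.15 (SE 0.46, adjusted p = 0.0023). Ier3 rose by 1.33 (SE 0.28, adjusted p = 0.0018). The other 6 did not pass, Junb with a log2 difference of -0.73 (adjusted p = 0.14) and Jund with 0.74 (adjusted p = 0.074). In the medium bin of ATV-TfR, where 5.13% of genes were called against negative, Nr4a1 fell by 2.04 (SE 0.27, adjusted p = 1.9e-05) and Ier3 rose by 1.10 (SE 0.28, adjusted p = 0.017). Between high and medium, where 7.91% were called, Fos fell by 1.54 (adjusted p = 0.0003) and Nr4a1 by 0.71 (adjusted p = 0.039). Leaving out each of the 6 pools in turn, the Nr4a1 calls of high and of medium against negative were kept 6 times of 6, the former with log2 differences from -3.31 to -2.41. In high against negative leaving out ATV-TfR replicate 1 ended the Fos call (adjusted p = 0.35), its replicate 2 the Ier3 call (adjusted p = 0.36) and either of them the Egr1 call. The Ier3 call in medium and the Nr4a1 call of high against medium were also lost without either pool of ATV-TfR, and the Fos call of high against medium without replicate 2.

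For ATV-CD98hc high against negative, 3 of 10 members were called, all lower, against 5.26% of genes in either direction. Nr4a1 fell by 2.53 (SE 0.39, adjusted p = 0.00012), Egr1 fell by 2.93 (SE 0.60, adjusted p = 0.0027) and Fos fell by 2.61 (SE 0.54, adjusted p = 0.0030). Of the other 7, Fosb had a log2 difference of -2.67 (adjusted p = 0.12), Junb -0.98 (adjusted p = 0.098) and Ier3 0.45 (adjusted p = 0.47). The same 3 genes were called in the medium bin, where 3.84% of genes were, with Nr4a1 at -1.98 (adjusted p = 0.0017). Without ATV-CD98hc replicate 1 all 3 calls were lost in both bins, and in the high bin Fos then had adjusted p = 0.55 and Nr4a1 0.092. Between high and medium 0 of 10 members were called by edgeR, 3 had an unadjusted p below 0.05, DESeq2 called 0, and 2.59% of genes were called. In the low bins 0 of 10 members were called against negative, with 1 at an unadjusted p below 0.05 for ATV-TfR (0.447% of genes called) and 2 for ATV-CD98hc (0.700%), and DESeq2 called 0 in each.

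With the pool as a block, since all bins of a pool come from the same mice, 6 members were called in ATV-TfR, adding Junb (-0.72) and Jund (0.75), and 5 in ATV-CD98hc, adding Fosb (-2.61, adjusted p = 0.045) and Junb (-1.08, adjusted p = 0.00014). In medium against negative the block gave 5 calls in ATV-TfR, adding Egr1 (-1.70), Junb (-0.55) and Jund (0.59), and 4 in ATV-CD98hc, adding Junb (-1.01). Between high and medium it gave 3 in ATV-TfR, adding Fosb (-0.93), and in ATV-CD98hc, where 0 were called without it, 4, Fosb (-0.74), Fos (-0.73), Egr1 (-0.63) and Nr4a1 (-0.55). The shares of all genes called under the block are not given for these contrasts. A wider rise in calls can therefore not be told from one in the members.

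The test of the difference between the antibody transport vehicles in high minus negative called 0 of 10 members in edgeR, with 1 at an unadjusted p below 0.05, DESeq2 calling 0 and 0.0194% of genes called. The estimates of that difference (ATV-TfR minus ATV-CD98hc) were 2.27 for Fosb (SE 1.36), 0.87 for Ier3 (SE 0.41, adjusted p = 0.89), 0.45 for Fos and -0.21 for Nr4a1. In the low bin itself, Nr4a1 of ATV-TfR exceeded that of ATV-CD98hc by 1.76 (SE 0.25, adjusted p = 0.00018), a call kept without each of the 6 pools in turn, where 2.02% of genes were called. In the medium bin, with 5.54% called, Fos was higher by 0.90 (adjusted p = 0.048) and Nr4a1 by 0.77 (adjusted p = 0.030), both lost without either ATV-TfR pool. More members were called higher there without ATV-CD98hc replicate 2, in a fit whose share of all genes is not given. In the high bin 0 of 10 were called by edgeR against 0.130% of genes, with 2 at an unadjusted p below 0.05 and 0 in DESeq2. Without ATV-CD98hc replicate 2 some members were called there, again with no share of all genes given. In the negative bin 0 were called against 0.0648%, with 1 at an unadjusted p below 0.05 and 0 in DESeq2.

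Set against control IgG in the low bin, the endothelial-like cells of both antibody transport vehicles held more Fos and Nr4a1. Control IgG low libraries had Fos at 8.06 and 7.17 CPM and Nr4a1 at 5.01 and 7.43, below every low library of the antibody transport vehicles. Junb stood at 69.0 and 67.7 CPM there against 202 and 143 in ATV-TfR low. Ier3 stood at 278 and 206 CPM against 134 and 164, so that the control libraries lay above. For ATV-TfR, 6 of 10 members were called where 12.5% of genes were, 5 higher and 1 lower, and the median log2 difference was 0.89 over the members and -0.09 over all genes tested. Nr4a1 was higher by 3.68 (SE 0.27, adjusted p = 8.7e-10) and Fos by 2.87 (SE 0.34, adjusted p = 1.4e-06), followed by Junb with 1.22, Jun with 0.91 and Ier2 with 0.78. Ier3 was lower, at -0.84 (SE 0.26, adjusted p = 0.030), and did not pass with RLE factors (-0.70, adjusted p = 0.065) or in DESeq2 (adjusted p = 0.057).

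For ATV-CD98hc in the low bin, 4 of 10 were called, all higher, where 12.1% of genes were called. Fos was higher by 1.94 (SE 0.30, adjusted p = 5.8e-05) and Nr4a1 by 1.91 (SE 0.25, adjusted p = 6.6e-06), with Dusp1 at 0.93 (adjusted p = 0.033) and Ier2 at 0.73 (adjusted p = 0.035). Both comparisons use the same 2 control libraries, and mouse strain differs along with treatment. The Fos and Nr4a1 calls were kept without each of the 6 pools in turn in both comparisons. In ATV-TfR the Jun and Junb calls were lost without ATV-TfR replicate 1, the Ier2 call without either pool of ATV-TfR or of control IgG, and the Ier3 call without either ATV-TfR pool or control IgG replicate 1. In ATV-CD98hc the Ier2 and Dusp1 calls were lost without either pool of ATV-TfR or of control IgG, and without ATV-CD98hc replicate 1 the count was 7 in place of 4. In the negative bin, against the 1 control library, whose spread is taken from the other groups, Nr4a1 was higher by 2.82 in ATV-TfR (adjusted p = 5.2e-06, 5.05% of genes called) and by 1.99 in ATV-CD98hc (adjusted p = 0.0091, 1.91% called), and Egr1 by 2.15 and 2.60 (adjusted p = 0.028 and 0.031). Of these, Nr4a1 in ATV-TfR was kept in each of the 5 fits that left out a pool, and in ATV-CD98hc it was lost without ATV-CD98hc replicate 1 (adjusted p = 0.36). The Egr1 calls were lost without either ATV-TfR pool, and that of ATV-CD98hc also without ATV-CD98hc replicate 1. Other left-out pools gave more calls, 5 in place of 2 for ATV-TfR without either ATV-CD98hc pool, and 4 in place of 2 for ATV-CD98hc without its replicate 2.

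The bins of control IgG among themselves gave 0 calls in edgeR. In low against negative 4.01% of genes were called, 2 members had an unadjusted p below 0.05 and DESeq2 called 1, Nr4a1, lower. In medium against negative 0.421% were called, 3 members had an unadjusted p below 0.05 and DESeq2 called 1, Junb. With the pool as a block 2 members were called in low, Egr1 (1.29) and Nr4a1 (-0.80), and 1 in medium, Junb (1.53). The medium libraries held only 27 and 42 endothelial-like cells, with Fos at 47.0 and 37.0 CPM and Nr4a1 at 0 and 30.8. Against those libraries 0 members were called in edgeR for ATV-TfR medium (4 at an unadjusted p below 0.05, 0 in DESeq2, 0.829% of genes called). For ATV-CD98hc medium 0 were called as well (3 at an unadjusted p below 0.05, 3 in DESeq2, 0.907% called).

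**Figure D3:**
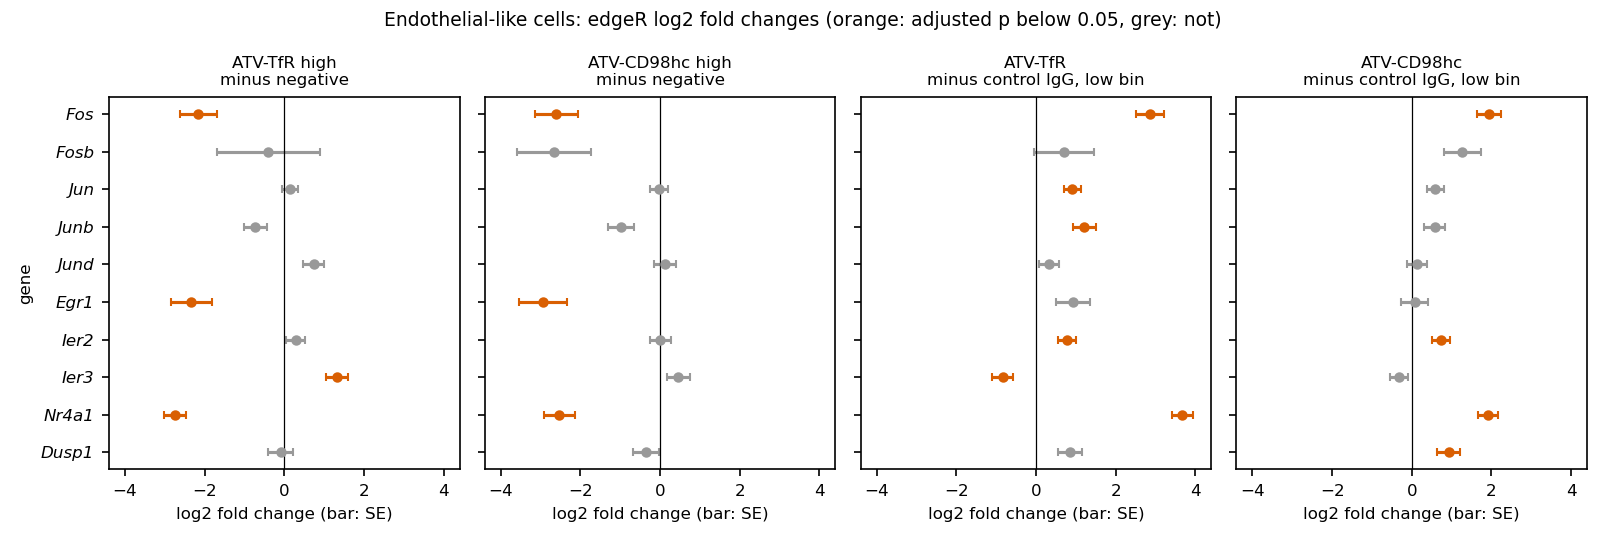
Log2 fold changes with SE bars of the 10 genes in endothelial-like cells from edgeR, for high minus negative of both antibody transport vehicles and for each against control IgG in the low bin, in orange where the adjusted p is below 0.05. Fos and Nr4a1 are orange in all 4 panels, left of 0 in the first 2 and right of 0 in the others.

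Endothelial-like cells were made up of 6 clusters, and the members were unevenly spread over them. Cluster 32, with 253 cells led by Plvap, a gene of fenestrated vessel walls, Rbp7 and Esm1, held Fos at 83.7, Egr1 at 33.7 and Nr4a1 at 168 CPM. Cluster 34, with 187 cells led by Cytl1, Gkn3 and Fbln5 together with Bmx and Gja5, genes of arterial endothelium, held Fos at 117, Fosb at 32.5, Egr1 at 81.8 and Nr4a1 at 98.6 CPM. In the largest, cluster 1 with 34672 cells, Fos was at 14.0 and Nr4a1 at 18.3 CPM. Ier3 ran against this order, with 90.8 CPM in cluster 32, 65.0 in cluster 34, 181 in cluster 1 and 291 in cluster 4, led by Slc38a5, an amino acid transporter gene. Clusters were built from the same cells and genes, so these levels carry no test.

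The share of the 2 small clusters followed the bins. Cluster 32 held 34.1% and 26.6% of endothelial-like cells in the ATV-TfR negative libraries, 3.91% and 7.21% in the low ones, and 8.75% and 10.0% in the ATV-CD98hc negative libraries. Cluster 34 held 12.2% and 17.7% in ATV-TfR negative, 9.45% and 9.13% in ATV-TfR low, and 6.25% and 6.67% in ATV-CD98hc negative. In the control IgG negative library the shares were 0.678% and 0.439%. The larger clusters shifted as well, since cluster 1 held 73.9% and 68.8% of ATV-TfR low and 61.7% and 53.3% of ATV-CD98hc low cells but 10.1% and 9.58% of control IgG low cells, most of which lay in clusters 3 and 4. The bins are gates on dye signal, and the part of the sort in these shares was not tested.

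Within libraries that held at least 20 cells of each cluster, cluster 1 was set beside cluster 3, whose leading genes include Tfrc, the transferrin receptor gene, and Slc7a5, an amino acid transporter gene. Fos was at 17.8 ± 9.33 CPM in cluster 1 and 3.03 ± 1.51 in cluster 3 (SD, n = 13 libraries), higher in cluster 1 in 13 of 13. Nr4a1 was at 18.6 ± 4.99 and 7.81 ± 2.60, also higher in 13 of 13, as were Jun, Junb, Jund, Ier2 and Dusp1. Ier3 was at 186 ± 42.0 in cluster 1 and 230 ± 42.7 in cluster 3, lower in cluster 1 in 12 of 13. Against cluster 4, with 302 ± 81.0 CPM, Ier3 was lower in cluster 1 in 13 of 13.

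The contrasts were therefore also fitted on cluster 1 alone, a choice made after the clusters were seen. In ATV-TfR high against negative, Nr4a1 was then at -2.95 (adjusted p = 9.8e-07) and Junb at -1.09 (adjusted p = 0.039), while Fos was at -0.40 (adjusted p = 0.90), Egr1 at -1.56 (adjusted p = 0.59) and Ier3 at 1.11 (adjusted p = 0.082). In ATV-CD98hc, Nr4a1 was at -2.14 (adjusted p = 0.0060), Egr1 at -3.41 (adjusted p = 0.013) and Junb at -1.19 (adjusted p = 0.041), while Fos was at -2.01 (adjusted p = 0.17). Against control IgG in the low bin, cluster 1 kept Nr4a1 (2.24), Fos (1.61, adjusted p = 0.035) and Jun (0.81) for ATV-TfR. For ATV-CD98hc it kept 0 calls, with Fos at 0.54 (adjusted p = 0.66) and Nr4a1 at 0.50 (adjusted p = 0.64).

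Leaving out only clusters 32 and 34 gave a mixed picture. For ATV-TfR high against negative Nr4a1 stayed called (-2.83), while Fos was at -1.75 (adjusted p = 0.19), Egr1 at -1.14 (adjusted p = 0.68) and Ier3 at 0.86 (adjusted p = 0.13). For ATV-CD98hc Nr4a1 (-2.43) and Egr1 (-3.17) stayed called, and Fos was at -2.04 (adjusted p = 0.11). In the low bin against control IgG, Fos (2.92), Nr4a1 (3.31), Junb (1.16), Jun (0.96) and Ier2 (0.82) of ATV-TfR and all 4 calls of ATV-CD98hc stayed, while Ier3 of ATV-TfR was at -0.66 (adjusted p = 0.12). Of the marker lists, the summed smooth muscle genes in endothelial-like cells moved with Fos and Nr4a1, at 132 to 198 CPM in ATV-TfR negative, 111 to 175 in low, 74.3 to 76.8 in medium and 47.8 to 55.0 in high. In ATV-CD98hc they ran from 167 to 175 in negative to 37.6 to 50.3 in high, and in control IgG low they were at 38.6 to 56.6, with Cnn1 at 0 in the negative libraries of all 3 treatments. Their part in the results was not tested.

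**Figure D4:**
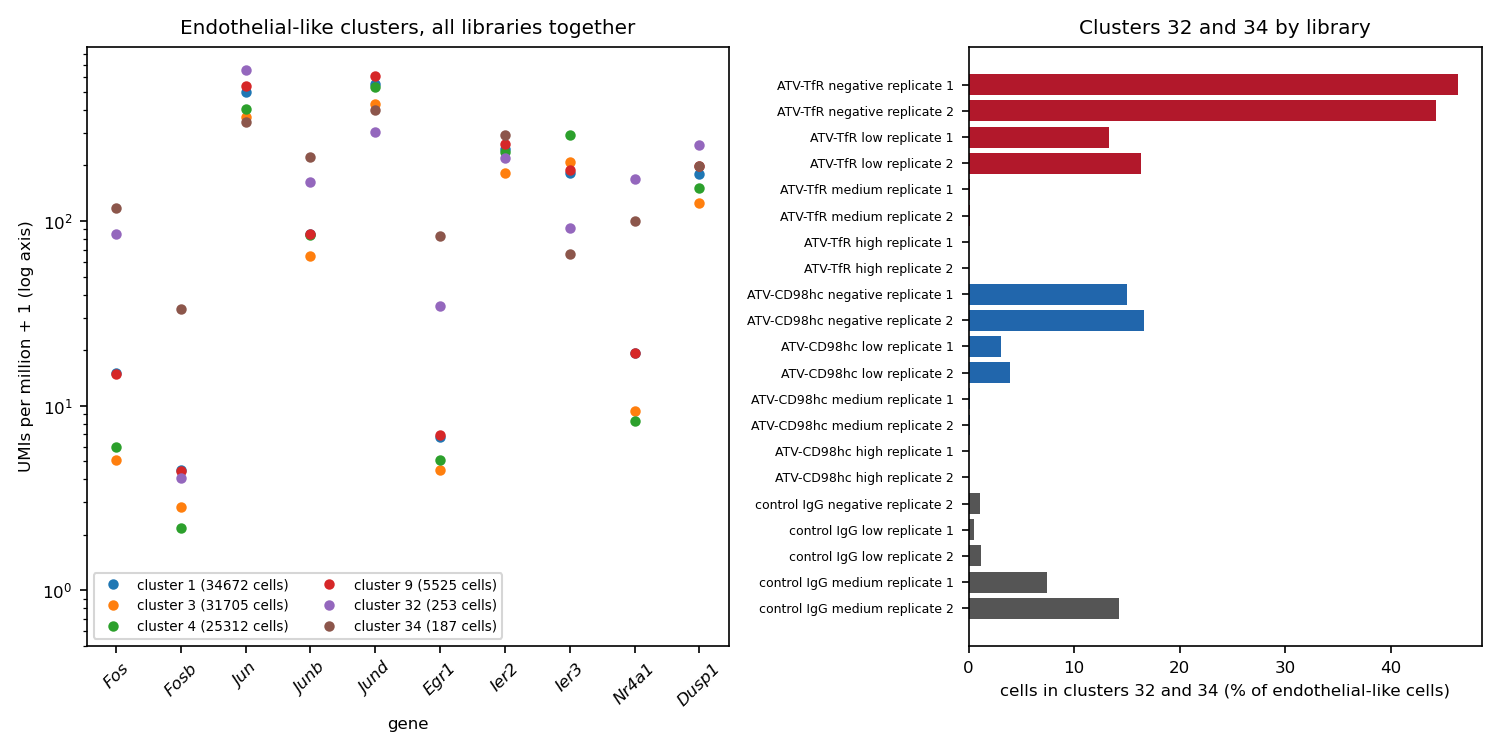
Left, CPM plus 1 (log axis) of the 10 genes in the 6 endothelial-like clusters over all libraries, and right, the percent of endothelial-like cells in clusters 32 and 34 by library. Clusters 32 and 34 hold the highest Fos, Egr1 and Nr4a1 and the lowest Ier3, and their joint share is largest in the 2 ATV-TfR negative libraries.

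Cell by cell, after each cell was thinned to 1500 UMIs, 810 of 94413 endothelial-like cells held a Fos UMI, 469 an Egr1 UMI, 1508 an Nr4a1 UMI and 22179 an Ier3 UMI. Fos and Egr1 were found in the same cell 93 times, where independence within libraries would give 5.24, a ratio of 17.7. The ratio was 19.9 for Fosb with Egr1 (30 cells), 17.4 for Fos with Fosb (49 cells), 11.9 for Egr1 with Nr4a1 (107 cells) and 7.75 for Fos with Nr4a1 (123 cells). Ier3 had ratios of 1.06 with Fos, 1.02 with Nr4a1 and 1.00 with Jun, and of 1.30 with Junb and 1.26 with Egr1. Other pairs of common members had low ratios as well, such as Jun with Ier2 at 1.11. A gene found in as many cells as Ier3 cannot reach the ratios of the rare pairs. In microglia-like cells Ier3 with Egr1 stood at 4.75 (20 cells). In microglia-like cells the highest ratio among pairs seen in at least 10 cells was that of Egr1 with Ier2, at 5.76 (33 cells), and in astrocyte-like cells that of Ier2 with Ier3, at 5.20 (11 cells). Before thinning, 8.94% and 6.33% of cells in the ATV-TfR negative libraries held a Fos UMI, against 1.43% and 1.28% in the high ones, at median depths of 3731, 3276, 3165 and 3587 UMIs. After thinning, with 13, 13, 446 and 371 shallower cells left out, the shares were 5.45%, 1.52%, 0.662% and 0.514%. The negative libraries held only 123 and 79 endothelial-like cells before thinning, so their shares rest on very few Fos-positive cells.

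Other genes of the same pathway, taken from lists chosen with earlier results of these data known, were read in the same contrasts. Of 36 tested further immediate early genes, 6 fell and 4 rose in ATV-TfR high against negative, where 10.3% of all genes were called, among them the orphan receptor genes Nr4a3 (-2.94) and Nr4a2 (-2.27), which fell, and Cebpd (1.66), which rose. In ATV-CD98hc, where 5.26% were called, 2 fell, Nr4a2 (-2.57) and Gadd45g (-1.92), and 1 rose, Cebpd (1.56). Against control IgG in the low bin, where 12.5% of all genes were called for ATV-TfR and 12.1% for ATV-CD98hc, 11 rose and 0 fell for ATV-TfR, with Nr4a3 at 2.98, Egr3 at 2.77 and Nr4a2 at 2.76, and 9 rose and 1 fell for ATV-CD98hc, with Gadd45b at 1.93 and Ptgs2 at -1.92. Of 11 tested feedback genes, which damp MAP kinase signalling, 4 rose for ATV-TfR in that bin, Dusp2 (3.81), Dusp5 (3.71), Spry4 (2.81) and Dusp8 (1.82), and 2 for ATV-CD98hc, Spry4 (1.24) and Spry2 (0.92). Of 13 heat shock genes, 3 rose for ATV-TfR (Hspa1a 1.86, Hspa1b 1.52 and Hspa5 0.73) and 0 for ATV-CD98hc. Of 21 upstream kinases and factors, 1 rose (Mef2c, 0.71) and 1 fell (Rps6ka1, -0.77) for ATV-TfR, and 0 were called for ATV-CD98hc, so that the heat shock genes of ATV-CD98hc and these 21 genes in both comparisons lay below those shares.

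In astrocyte-like cells the clearest movement was that of Jun, which was lower in the brighter bins of ATV-CD98hc. Jun stood at 51.5 and 65.4 CPM in the negative, 44.4 and 42.3 in the low, 33.5 and 34.6 in the medium, and 31.6 and 31.1 in the high bin. The libraries of the 3 brighter bins lay below both negative libraries, and the medium and high ones below both low libraries. In ATV-TfR the same bins held 56.9 and 55.8, 52.2 and 55.7, 52.6 and 52.2, and 66.4 and 58.5 CPM, with no such order. Of the 10 members 9 passed the filter on low counts among 16064 genes tested, all but Fosb.

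In ATV-CD98hc, Jun fell by 0.38 in low against negative (SE 0.10, adjusted p = 0.041, 2.83% of genes called), the only member called there. It fell by 0.72 in medium (SE 0.11, adjusted p = 0.00017, 15.6% called) and by 0.93 in high (SE 0.20, adjusted p = 0.0049, 7.81% called). The medium call was kept without each of the 6 pools in turn, while the high call was lost without ATV-CD98hc replicate 2 and the low call without that pool or either pool of ATV-TfR. In the medium bin Ier3 rose as well, from 1.92 and 2.56 to 4.74 and 6.80 CPM (log2 difference 1.48, SE 0.30, adjusted p = 0.0020), and Ier2 from 3.78 and 5.69 to 5.65 and 10.0 (0.86, SE 0.27, adjusted p = 0.034). The Ier2 libraries overlapped, its call was lost without any of the 4 pools of the antibody transport vehicles, and the Ier3 call was lost without ATV-CD98hc replicate 2. With the pool as a block 2 members were called in the low bin, Dusp1 (-0.45, adjusted p = 0.019) joining Jun, while 5 were called in the medium bin, with Fos (-1.07) and Dusp1 (-0.45) added, and 2 in the high bin, with Dusp1 (-1.46) added. The shares of all genes called under the block are not given for these bins.

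In ATV-TfR low against negative, 0 of the 9 members were called by edgeR, 1 had an unadjusted p below 0.05, DESeq2 called 0, and 1.30% of genes were called. The largest estimates there were those of Junb (-0.71), Ier3 (-0.46) and Egr1 (-0.36). Junb fell by 0.98 in medium against negative (SE 0.25, adjusted p = 0.030, 4.54% called), a call lost without either ATV-TfR pool. In high against negative, where 17.5% of genes were called, 3 members rose. Ier3 went from 3.13 and 2.69 to 9.35 and 8.24 CPM (1.73, SE 0.33, adjusted p = 0.0014), Ier2 from 5.55 and 3.71 to 11.8 and 8.24 (1.27, SE 0.32, adjusted p = 0.0095) and Jund from 102 and 92.1 to 134 and 111 (0.46, SE 0.13, adjusted p = 0.016). The high libraries lay above the negative ones for all 3 genes, and all 3 calls were lost without either ATV-TfR pool.

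Set side by side, Jun was higher in ATV-TfR than in ATV-CD98hc astrocyte-like cells by 0.65 in the medium bin (SE 0.11, adjusted p = 0.0003, 20.1% of genes called) and by 1.17 in the high bin (12.1% called), both kept without each of 6 pools. Ier3 stood at -1.23 in the medium bin and 2.86 in the high bin for the same difference. Leaving out replicate 2 of either antibody transport vehicle ended both Ier3 calls, and leaving out ATV-TfR replicate 1 that of the high bin. The bin effects themselves differed for Jun and Ier3 in medium against negative (6.04% of genes called) and for Jun and Jund in high against negative (7.43%), with Jun at 1.20 in the latter (SE 0.23, adjusted p = 0.0033). That Jun difference was lost without ATV-TfR replicate 1, and the other 3 without either ATV-TfR pool or ATV-CD98hc replicate 2. In high, Dusp1 (1.44) was called as well with the pool as a block. In the low bin 0 members were called against 3.94% of genes, with 2 at an unadjusted p below 0.05, 0 in DESeq2 and Jun at 0.33 (SE 0.09, adjusted p = 0.0501). In the negative bin 0 were called against 0.747%, with 0 at an unadjusted p below 0.05 and 0 in DESeq2. Against the 1 control IgG library in the negative bin 0 members were called for ATV-TfR (0.324% of genes, 1 at an unadjusted p below 0.05, 0 in DESeq2) and 0 for ATV-CD98hc (0.0125%, 1 and 0).

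The shares of the astrocyte-like clusters differed between bins as well. Within 16 libraries, cluster 2, led by genes such as Hapln1 and Chrdl1, held Jun at 77.9 ± 11.7 CPM and cluster 0, led by genes such as Agt and Slc6a11, held it at 24.2 ± 6.18 (SD, n = 16), with cluster 2 higher in 16 of 16. Cluster 2 made up 40.0% and 53.0% of astrocyte-like cells in ATV-CD98hc negative, 31.2% and 32.6% in low, 18.3% and 21.4% in medium, and 7.14% and 10.6% in high libraries. In ATV-TfR it made up 33.8% and 35.9% in negative, 37.1% and 40.9% in low, 36.4% and 41.8% in medium, and 49.9% and 50.5% in high. Within cluster 0 alone Jun was at -0.19 in low (adjusted p = 0.82), -0.15 in medium (adjusted p = 0.79) and -0.30 in high (adjusted p = 0.79) against negative in ATV-CD98hc. In ATV-TfR high, Ier3 was at 1.28 there (adjusted p = 0.26) and Jund at 0.45 (adjusted p = 0.12). The 10 endothelial markers, all with UMIs, summed to 603 to 908 CPM in astrocyte-like cells of ATV-TfR high against 138 in negative, and to 549 to 832 in ATV-CD98hc medium against 109 to 132, and their part in the Ier3 and Ier2 values was not tested.

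In microglia-like cells, the resident macrophages of the brain, Ier3 was higher in the brighter bins than in the negative bin. Several other members, Egr1 among them, were higher in brighter bins other than ATV-CD98hc low, where only Ier3 was called. Ier3 stood at 17.4 and 10.5 CPM in ATV-TfR negative, 46.4 and 50.5 in low, and 108 and 73.2 in medium libraries. In ATV-CD98hc it stood at 12.1 and 4.45 in negative, 26.3 and 18.7 in low, 57.0 and 104 in medium, and 108 and 156 in high libraries. Control IgG had 22.5 in its negative library and 93.7 and 66.0 in the low ones. No brighter bin overlapped with the negative bin of its treatment. Fos stood at 16.0 and 11.2 CPM in ATV-TfR negative, 36.6 and 36.7 in low, and 53.8 and 61.7 in medium libraries. Egr1 stood at 15.2 CPM in the control IgG negative library and at 167 and 217 in the low ones, the highest of all microglia-like libraries.

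In ATV-TfR low against negative 5 of 10 members were called, all higher, where 10.5% of 12948 genes tested were called. Ier3 rose by 1.78 (SE 0.28, adjusted p = 4.6e-05), Egr1 by 1.63 (SE 0.35, adjusted p = 0.0016), Dusp1 by 1.59 (SE 0.34, adjusted p = 0.0016), Ier2 by 1.45 (SE 0.31, adjusted p = 0.0019) and Fos by 1.44 (SE 0.38, adjusted p = 0.013). The same 5 were called in medium against negative, with 12.7% of genes called and Ier3 at 2.68 (SE 0.37, adjusted p = 1.7e-05). In ATV-CD98hc the low bin gave 1 call, Ier3 with 1.19 (SE 0.38, adjusted p = 0.048, 9.05% of genes called), which was lost under each of the 6 left-out pools and in DESeq2. The medium bin gave 5, with Ier3 at 2.91 (SE 0.39, adjusted p = 8.6e-06), Dusp1 at 2.65 and Ier2 at 2.43, and 6.46% of genes called. The high bin gave 6, with Ier3 at 3.66 (SE 0.43, adjusted p = 3.1e-06), Ier2 at 2.80 and Junb at 1.28, and 6.49% called. The Ier3 calls in ATV-TfR low and medium and in ATV-CD98hc medium and high were each kept without each of 6 pools in turn, the last with log2 differences from 3.10 to 5.11. DESeq2 did not call Fos in ATV-TfR low (adjusted p = 0.092) or in ATV-CD98hc medium (adjusted p = 0.065). In ATV-TfR low the Fos call was lost without either ATV-TfR pool, the Egr1 call without its replicate 1, and the Ier2 and Dusp1 calls without its replicate 2. In ATV-TfR medium Fos was lost without either ATV-TfR pool, Egr1 and Ier2 without replicate 2 and Dusp1 without replicate 1. In ATV-CD98hc medium Ier2 and Dusp1 were kept each time, while the Egr1 call was lost without either ATV-CD98hc pool, and the Fos call without either ATV-TfR pool or ATV-CD98hc replicate 2. In ATV-CD98hc high Ier2 and Junb were kept each time, Fos was lost without ATV-CD98hc replicate 2, Dusp1 without replicate 1, and Egr1 without either pool of ATV-CD98hc or of control IgG. With the pool as a block Junb (0.80) was called in ATV-TfR medium as well, and Jun in ATV-CD98hc medium (0.79) and high (0.86). In the largest cluster alone the count was 5 in ATV-TfR low, 6 in ATV-CD98hc medium and 7 in ATV-CD98hc high, with no share of all genes given for these fits. Cluster shares differed between bins. Cluster 19 held 0.639% and 0.750% of microglia-like cells in ATV-TfR negative, 13.4% and 17.9% in low, and 28.8% and 11.1% in medium libraries. In ATV-CD98hc it held 1.20% and 1.23% in negative and 11.4% and 21.8% in low libraries, and no cells of the medium ones. Its part in the results was not tested.

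In control IgG low against negative, 5 of 10 members were called in microglia-like cells, all higher, where 1.11% of genes were, with Egr1 at 3.68 (SE 0.50, adjusted p = 0.00043), Ier2 at 2.92, Fos at 2.87 (adjusted p = 0.045), Dusp1 at 2.71 and Junb at 1.82. The low libraries held only 27 and 26 microglia-like cells and the negative bin is 1 library, whose spread is taken from the other groups. The Egr1 call was kept in each of the 5 fits that left out a pool (3.54 to 3.83). The other 4 calls were lost without control IgG replicate 1, and that of Fos also without either ATV-TfR pool. With the pool as a block Fos (adjusted p = 0.49) and Dusp1 (adjusted p = 0.37) did not pass. Against those low libraries, 6 of 10 members were lower in ATV-CD98hc low, where 4.36% of genes were called, with Egr1 at -4.41 (SE 0.46, adjusted p = 3.7e-06), and 2 in ATV-TfR low, where 2.02% were called, Egr1 with -2.75 and Junb with -1.28. In ATV-CD98hc the Egr1 and Junb calls were kept without each of 6 pools, while Fos and Jun were lost without control IgG replicate 1, and Ier2 and Dusp1 without either control pool. In ATV-TfR the Egr1 call was lost without control IgG replicate 2 and the Junb call without either pool of ATV-TfR or of control IgG. Between the antibody transport vehicles 0 members were called in the negative bin (0.00% of genes, 0 at an unadjusted p below 0.05, 0 in DESeq2). In the low bin 0 were called as well (0.0232%, 8 and 0), but 4, all higher in ATV-TfR, without ATV-CD98hc replicate 1. In the medium bin 0 were called (7.56%, 1 and 0), and 1 without ATV-CD98hc replicate 2.

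Markers of other cells rose with the bins in microglia-like cells. The 10 endothelial markers summed to 88.1 to 108 CPM in ATV-TfR negative, 165 to 205 in low and 477 to 852 in medium libraries, and to 75.7 to 139 in ATV-CD98hc negative, 335 in low, 3593 to 4821 in medium and 2665 to 4164 in high libraries. The astrocyte markers summed to 668 to 815 CPM in ATV-TfR negative and 3483 to 4570 in low libraries, but to 676 to 756 in ATV-CD98hc negative and 358 to 436 in medium libraries. In control IgG low the astrocyte markers summed to 66.0 to 219 CPM, with Egr1 at its highest there. The endothelial markers summed to 104 and 1849 CPM in those low libraries, replicate 1 then 2, and to 273 in the control IgG negative library. The border macrophage markers summed to between 46.7 and 132 CPM in all bins. Their part in the results was not tested.

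**Figure D5:**
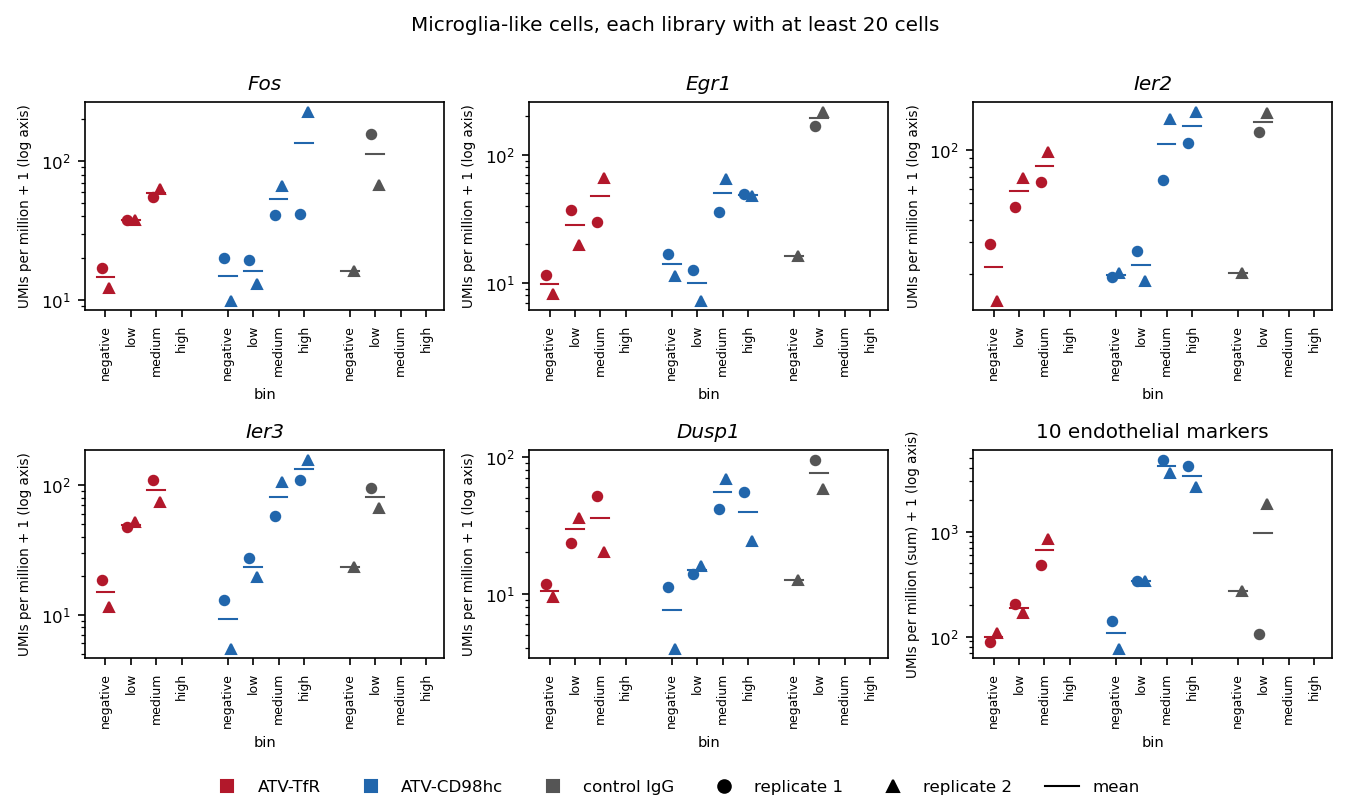
CPM plus 1 (log axis) of 5 genes and of the 10 endothelial markers summed, in microglia-like cells of each library by bin and treatment, with a circle for replicate 1, a triangle for replicate 2 and a bar at the mean. All 5 genes sit higher in the brightest bin shown than in the negative bin of each treatment, and the endothelial markers are highest in the medium and high bins of ATV-CD98hc.

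Of 35 further immediate early genes of the list tested in microglia-like cells, 5 rose in ATV-TfR low, 8 in ATV-TfR medium, 7 in ATV-CD98hc medium, 11 in ATV-CD98hc high and 5 in control IgG low against negative, and 0 fell in each. The shares of all genes called in these 5 contrasts, in the same order, were 10.5%, 12.7%, 6.46%, 6.49% and 1.11%, so that the first count, 5 of 35, is near its share. Of 13 heat shock genes, 1, 2, 1, 5 and 2 rose in the same contrasts, of which the first 3 counts are near those shares. In astrocyte-like cells of ATV-TfR high, where 17.5% of all genes were called, 3 of 33 further immediate early genes and 7 of 13 heat shock genes rose against negative, and of 10 feedback genes 2 fell, Spry4 (-0.69) and Dusp6 (-0.49). The count of further immediate early genes lies below that share, and that of the feedback genes near it.

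In the neutrophil-like cells, with 24 to 71 cells per library, Fos stood at 4450 and 3335 CPM in control IgG low, 3613 and 1263 in ATV-TfR low and 1383 and 843 in ATV-CD98hc low libraries. Against control IgG, all 10 members were lower in ATV-CD98hc low, where 45.9% of 5617 genes tested were called, with Fosb at -3.11, Egr1 at -2.16 and Fos at -1.93. In ATV-TfR low 4 of 10 were lower, a count near its share since 40.4% of genes were called, with Nr4a1 at -1.46 and Jun at -1.28. Of the 10 in ATV-CD98hc, Ier2 was lost without ATV-CD98hc replicate 2 and Ier3 without that pool or control IgG replicate 1. Of the 4 in ATV-TfR, only Nr4a1 was kept without each of 6 pools, the other 3 being lost without ATV-TfR replicate 2, Fosb and Ier2 also without control IgG replicate 1, and Jun without control IgG replicate 2. The count of 4 was 1 without ATV-TfR replicate 2, 2 and 3 without control IgG replicates 1 and 2, 6 without ATV-CD98hc replicate 1 and 10 without ATV-TfR replicate 1. DESeq2 called 9 of the 10 in ATV-CD98hc, all but Ier3, and of the 4 in ATV-TfR only Nr4a1. The marker genes of neutrophils themselves differed between these libraries, with sums of 226845 to 242351 CPM in control IgG low, 43504 to 87061 in ATV-CD98hc low and 20817 to 31781 in ATV-TfR low. The astrocyte markers ran the other way, at 0 to 57.5 CPM in control IgG low, 9275 to 11909 in ATV-CD98hc low and 9200 to 13434 in ATV-TfR low. Monocyte or dendritic cell markers stood at 326 to 610, 3468 to 3527 and 2631 to 4653 CPM in the same order, and microglia markers at 159 to 166, 1463 to 1564 and 1117 to 1672. Of the 2 libraries of the medium bin, the ATV-CD98hc one held neutrophil markers at 162320 and astrocyte markers at 360 CPM, with the 10 members summing to 11647 CPM. The ATV-TfR one held 16529 and 15131 CPM of these markers, and its members summed to 1089 CPM. The part of this makeup in the results was not tested.

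In border macrophage-like cells of ATV-TfR, Junb was lower by 2.15 in high against negative (SE 0.39, adjusted p = 0.00032), Fos by 3.26 (SE 0.80, adjusted p = 0.0074) and Egr1 by 3.59 (adjusted p = 0.021), where 9.44% of 8896 genes tested were called. Ier3 was at 147 and 128 CPM in the high and at 0 and 6.68 in the negative libraries (adjusted p = 0.00021), and the endothelial markers summed to 8527 to 8622 CPM in high against 33.4 to 62.3 in negative, and their part was not tested. The Fos and Egr1 calls were lost without either ATV-TfR pool, and the Junb and Ier3 calls without its replicate 1. Junb was also lower in ATV-TfR low (-1.50, 6.21% of genes called) and medium (-1.52, 4.23% called), and Ier3 was at 56.1 and 65.7 CPM in medium, a call DESeq2 did not make (adjusted p = 0.057). These 3 calls were lost without either ATV-TfR pool, and in low 3 members in place of 1 were called lower without either control IgG pool. The astrocyte markers summed to 174 to 207 CPM in negative, 3501 to 5169 in low and 1081 to 2010 in medium libraries of ATV-TfR. Jun was lower in control IgG high (-1.89, 2.44% called), against 1 negative library of 28 cells at 991 CPM, and that call was lost without either ATV-TfR pool, while 5 were called lower without control IgG replicate 1. Under the pool block more members were called lower, namely Jun (-0.79) in ATV-TfR high, Fos (-1.59), Egr1 (-2.43) and Ier2 (-1.28) in low, and Ier2 (-1.53) in medium. In control IgG 0 members were called in low against negative without the block (0.967% of genes called, 4 members at an unadjusted p below 0.05, 0 in DESeq2) and 0 in medium (1.62%, 5 and 0). Under the block Egr1, Fos, Ier2, Jun and Junb were called lower in each of the 2 bins, with Fos at -2.55 in low (1.72% of genes called) and -2.51 in medium (2.92%). In control IgG high the block gave 6 calls in place of 1, all lower, with Fos at -2.60 (4.74% called). In control IgG border macrophage-like cells Fos differed by replicate in each bin, at 196 and 41.1 CPM in low, 171 and 48.0 in medium, and 161 and 49.9 in high libraries, and the 1 negative library, from replicate 2, held 287.

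In smooth muscle-like cells Fos was at 143 and 87.9 CPM in ATV-TfR negative and 71.8 and 9.41 in low libraries, a log2 difference of -1.47 (SE 0.44, adjusted p = 0.035, 5.21% of 10822 genes called). The 1 medium library, of 21 cells, held 170 CPM, above both negative libraries. The Fos call was lost without ATV-TfR replicate 2 or control IgG replicate 2 and in DESeq2 (adjusted p = 1.0), and the astrocyte markers summed to 1222 to 1339 CPM in negative and 3950 to 4990 in low libraries. Pericyte-like cells of ATV-TfR had higher Jun in medium (1.51, 6.28% of genes called) and high (1.22, 3.20%) than in negative. The first call was lost without ATV-TfR replicate 2 and the second without either ATV-TfR pool. The endothelial markers there summed to 435 to 438 CPM in negative, 2031 to 3403 in medium and 2735 to 3775 in high libraries. Blocking on the pool, Jun (-1.01) and Jund (-0.54) were called lower as well in smooth muscle-like low, and Ier3 (0.62) higher in pericyte-like medium. In pericyte-like cells of ATV-CD98hc low Jund (-0.62) was called lower with the block, where 9.69% of genes were, and the bin effect of Jun in medium differed between the antibody transport vehicles (1.81, adjusted p = 0.025, 0.649% called). The part of these markers in the results was not tested.

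All members but Fosb and Egr1 were tested in oligodendrocyte-like cells. Oligodendrocyte-like cells of ATV-TfR had lower Nr4a1 in low (-1.10, 10.6% called) and in medium (-1.54, 20.9% called), and lower Jund in medium (-0.60). In each of these bins the count of members called is near the share. All 3 calls were lost without either ATV-TfR pool, and both Nr4a1 calls in DESeq2 (adjusted p = 0.14 and 0.064). In ATV-CD98hc, Jund alone was called in low, where it was lower (-0.67, 15.9% called), a count near its share. Ier3 (4.14) and Ier2 (2.80) were higher in medium (6.59% called). The Jund and Ier3 calls were lost without ATV-CD98hc replicate 2 and the Ier2 call without its replicate 1. The pool block also had Jund called lower in ATV-TfR low (-0.42) and in ATV-CD98hc medium (-0.47). The astrocyte markers in these cells summed to 595 to 863 CPM in ATV-TfR negative, 3255 to 5227 in low and 3809 to 4296 in medium, and in ATV-CD98hc to 664 to 740 in negative and 4686 to 5389 in low. The endothelial markers summed to 76.3 to 94.7 CPM in ATV-CD98hc negative and 1869 to 2155 in medium. Their part in the results was not tested.

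Fibroblast-like cells of ATV-TfR had lower Jund in low (-1.25) and in medium (-1.18), and lower Ier3 in low (-1.66), where 14.1% and 14.0% of genes were called, and all 3 calls were lost without either ATV-TfR pool. In both bins the count of members called is near the share. In ATV-CD98hc, Jun was at 0 in both negative libraries, of 33 and 25 cells, at 101 and 107 CPM in medium and at 147 and 96.7 in high ones. Both bins were called higher (5.44% and 8.89% of genes called), and both calls were lost without ATV-CD98hc replicate 1. Jun was also higher in control IgG high (1.90, 12.8% called) than in the 1 negative library, a call kept in 5 of 5 fits that left out a pool and not made by DESeq2 (adjusted p = 0.053). The count of members called is near the share in these bins of ATV-CD98hc and control IgG as well. Blocking on the pool also had Ier3 called lower in ATV-TfR medium (-1.03) and ATV-CD98hc high (-1.46), and Egr1 higher in control IgG high (1.66). It likewise had Jund called lower in control IgG low (-0.82, 16.1% of genes called) and medium (-0.74, 17.1% called), and Ier3 in the latter (-1.12). The bin effects of the antibody transport vehicles then differed for Jund in low (-1.17, adjusted p = 0.014, 2.28% called) and for Jun in medium (adjusted p = 0.018, 1.55% called). The astrocyte markers summed to 6050 to 6892 CPM in ATV-TfR negative and 2998 to 3921 in low, to 6621 to 6658 in ATV-CD98hc negative and 521 to 629 in high, and to 9147 in control IgG negative and 189 to 288 in high libraries. Their part was not tested.

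Ependymal-like cells of ATV-TfR had higher Ier2 (2.09) and Fos (1.87) in low (19.0% called), a count of members near its share. DESeq2 called neither (adjusted p = 0.075 and 0.86), and both calls were lost without ATV-TfR replicate 1, that of Fos also without either ATV-CD98hc pool. The astrocyte markers summed to 2262 to 2345 CPM in negative and 6083 to 6358 in low. The ependymal markers of these cells ran the other way, from 8539 to 9161 CPM in negative to 2625 to 3123 in low, below the astrocyte markers there. In choroid plexus epithelial-like cells Jun (1.79), Ier2 (2.50) and Ier3 (1.54) were higher in ATV-TfR high (24.4% called), a count not far from its share. The Jun call was lost without ATV-TfR replicate 1 and the other calls without either ATV-TfR pool. Jun (2.72), Dusp1 (2.07) and Ier3 (1.50) were higher in ATV-CD98hc medium (5.86% called), and only Jund was called in ATV-CD98hc high, lower (-0.77), a count below its share of 31.9%. Of these, Jun was lost without ATV-CD98hc replicate 2, Jund without its replicate 1, and Dusp1 and Ier3 without any 1 of the 6 pools and in DESeq2 (adjusted p = 0.084 and 0.11). Under the pool block Dusp1 (1.17) was called higher and Jund (-0.40) lower as well in ATV-TfR high, Jun (1.60) was called higher in ATV-CD98hc high, and Ier3 in ATV-CD98hc medium did not pass (adjusted p = 0.052). The endothelial markers summed to 41.6 to 45.9 CPM in ATV-TfR negative and 1179 to 2466 in high, and to 38.3 to 40.5 in ATV-CD98hc negative and 1324 to 4297 in medium. The part of these markers was not tested.

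Over all named classes other than endothelial-like and astrocyte-like, so with the microglia-like cells, the bin contrasts gave 59 calls of a member in a class, 44 higher and 15 lower, where 9.11% of all tests of a gene in those contrasts were called. The number of member tests behind the 59 is not given, so the count cannot be compared with that share. In the smaller classes many contrasts have few members called, counts often near the shares printed beside them. The lower calls came from these smaller classes, since all calls in microglia-like cells were higher.

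Each pool held 1 female and 1 male mouse, and cells could be assigned to either by transcripts of the X and Y chromosomes. Between the sexes 0 of 10 members were called in endothelial-like cells by edgeR (1 at an unadjusted p below 0.05, 0 in DESeq2, 0.692% of genes called). In astrocyte-like cells 0 were called (2 and 0, 0.155%), and in microglia-like cells 0 (1 and 0, 0.135%). The largest estimates, female minus male, were -0.18 for Egr1 in endothelial-like, -0.42 for Nr4a1 in astrocyte-like and -0.64 for Fosb in microglia-like cells. In smooth muscle-like cells 1 of 9 members tested was called, lower in females, and DESeq2 called 0. That call was lost without replicate 1 of either antibody transport vehicle, and the share of all genes called is not given there.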

How the data were processed

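Single-cell suspensions of whole brain pools were sorted and read by droplet sequencing, and the deposited matrices hold raw UMI counts per gene and barcode, which the authors made with Cell Ranger 7.1.0 on mm10 (GRCm38), per the submitters' processing notes, which also name Seurat 4 and 5 with no step given. The 23 matrices together held 265025 barcodes and 1129743851 UMIs over 32285 genes. The cell filter (500 genes, 800 UMIs or more, mitochondrial share up to 10%) passed 249715, and 15691 doublets called by Scrublet were removed, in 8 libraries by the top of its scores (percentile 94) in place of its automatic threshold. The rest were clustered with scanpy 1.11.5 on 2000 variable genes, 50 components, 15 neighbours and Leiden resolution 1 into 39 clusters. A cluster took a class name where at least 0.6 of that list's markers, and at least 3, were detected, and led the next list by 0.25; these thresholds were set after the clusters were seen. Names rebuilt this way may differ from those of the study.

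UMIs were summed per class and library with at least 20 cells and tested with edgeR 4.0.16 (quasi-likelihood, TMM factors, filterByExpr, R 4.3.3) in 1 fit of 12 group means, with Benjamini-Hochberg adjustment over all genes tested in the class. Sexes were compared on sums per class, pool and sex with the pool as a block. In single cells, shares and pairs of genes were counted after thinning to 1500 UMIs. On simulated data for ATV-TfR high against negative in endothelial-like cells, with 13765 genes, the fit recovered 41 of 50 genes changed 2-fold up, 50 of 50 changed 4-fold up, 29 of 50 at 0.5 and 50 of 50 at 0.25. The changed genes were drawn from those with an expected count above 20 in each ATV-TfR negative library. These rates therefore do not cover members with lower counts there, such as Fos. Alternatives were DESeq2 1.42.0, RLE factors, no filter on low counts, at least 50 cells, at least 1500 UMIs per cell, percentile 94 for doublets in every library, leaving out each pool, a replicate block, and, chosen after the data were seen, the largest cluster of a class alone and classes without clusters under 1% of their cells. The bins of a pool come from the same 2 mice per the labels, so the pool pairs them, and the correlations of replicate differences between bins ran from 0.028 to 0.93. Across treatments only the replicate number is shared. Unless printed with an alternative fit, the shares of all genes called belong to the main fit. Counts of members under an alternative then have no share to be set against. The members and lists were chosen with earlier results of these data known. The text gives all called members of each main comparison, or the 3 with the largest change where none was called, and up to 4 called genes of a list. Comparisons of the antibody transport vehicles within a bin are left out for the smaller classes. Their calls (ATV-TfR minus ATV-CD98hc) include Fosb in neutrophil-like low (1.95), and Ier2 (-2.88) and Ier3 (-4.30) in oligodendrocyte-like medium.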

Additional observations from a re-analysis of the deposited data

Results flagged for a closer look

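Between ATV-TfR and ATV-CD98hc, 4 bin effects of the immediate early genes differed by a test of the difference itself in the fit without a block, all in astrocyte-like cells. The difference is the bin effect of ATV-TfR minus that of ATV-CD98hc on the log2 scale, tested with edgeR. In medium minus negative, where 6.04% of genes were called, Jun differed by 0.68 (SE 0.15, adjusted p = 0.0097) and Ier3 by -1.66 (SE 0.42, adjusted p = 0.023). In high minus negative, where 7.43% were called, Jun differed by 1.20 (SE 0.23, adjusted p = 0.0033) and Jund by 0.86 (SE 0.22, adjusted p = 0.021). These 4 also passed with the pool as a block, which added 4 more, of which 3 were in other classes. They were Dusp1 in high astrocyte-like cells (1.44, adjusted p = 0.040), Jund in low fibroblast-like cells (-1.17, adjusted p = 0.014, 2.28% of genes called), Jun in medium pericyte-like cells (1.81, adjusted p = 0.025, 0.649% called) and Jun in medium fibroblast-like cells (adjusted p = 0.018, 1.55% called). The last has no size, since Jun had 0 UMIs in both ATV-CD98hc negative libraries of that class.

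Jun fell with dye signal in ATV-CD98hc and did not in ATV-TfR, at 31.6 and 31.1 CPM in the 2 high libraries of the former and 66.4 and 58.5 in those of the latter. The Jun difference in high did not pass once replicate 1 of ATV-TfR was left out (adjusted p = 0.097) and ran from 1.00 to 1.41 over the left-out pools. The Jun difference in medium was lost without either ATV-TfR pool or ATV-CD98hc replicate 2 (0.53 to 0.84), as was that of Jund in high (0.55 to 1.20) and that of Ier3 in medium. In cluster 0 alone, the largest astrocyte-like cluster, the Jun differences were -0.14 in medium (adjusted p = 0.91) and 0.79 in high (adjusted p = 0.68), Jund in high was at 0.42 (adjusted p = 0.76) and Ier3 in medium at -1.96 (adjusted p = 0.23). The endothelial markers summed to 176 to 182 CPM in ATV-TfR medium and 549 to 832 in ATV-CD98hc medium astrocyte-like cells, and their part in the Ier3 difference was not tested.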

How the results depend on the processing

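Of the single members in the comparisons below, 1722 values kept their side of the threshold under an alternative, 53 gained a call and 48 lost one. Direction turned in 0 of 270 values of called members and in 125 of 1553 values of members not called. Outside those comparisons, the difference in Jun between the bin effects in medium astrocyte-like cells turned from 0.68 to -0.14 in the largest cluster. Of the levels by class 214 moved by less than 1 SD and 16 by more. In endothelial-like cells the count of members called in ATV-TfR high against negative, 4 in the report, was 2 in the largest cluster alone, 1 without clusters under 1%, and 2 to 6 over the left-out pools, with 6 under the replicate block. For ATV-CD98hc, 3 in the report, it was 5 in DESeq2, with no filter and with the replicate block, and 0 to 4 over the left-out pools. For ATV-TfR against control IgG in the low bin, 6, it was 3 in the largest cluster and 2 to 7 over the left-out pools, and for ATV-CD98hc, 4, it was 0 and 2 to 7. ATV-TfR against ATV-CD98hc in the high bin, 0, reached 0 to 7 over the left-out pools. In astrocyte-like cells, ATV-TfR low against negative, 0, was 1 with no filter. ATV-CD98hc low, 1, was 0 with at least 1500 UMIs per cell, 0 with the percentile for doublets, 0 in the largest cluster, 2 with the replicate block, and 0 to 1 over the left-out pools. ATV-TfR against ATV-CD98hc low, 0, was 2 with no filter, 1 without clusters under 1%, 2 with the replicate block and 0 to 1 over the left-out pools. The 59 calls in the other classes were 94 with no filter, 33 with at least 50 cells, 94 with the replicate block and 33 to 65 over the left-out pools. The sex comparison in endothelial-like and in astrocyte-like cells, 0 in each, was 2 and 1 with no filter. The cause was not tested. Among the comparisons of bins with the negative bin, and the differences of such bin effects between the antibody transport vehicles, the pool as a block changed no call beyond those named beside them. RLE factors moved the median of all endothelial-like genes in high against negative by -0.26 (ATV-TfR) and -0.22 (ATV-CD98hc), and Jun in ATV-TfR then stood at -0.11 in place of 0.15. Negative bins with few endothelial-like cells limit Fos and Egr1 there to a few UMIs.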
